A study of Homo sapiens with 6 samples.

Results

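The 249 protein-coding genes of chromosome 19 whose symbol is ZNF followed by a number encode zinc finger proteins, and the accessibility of their promoters was measured by ATAC-seq in 3 esophageal cell lines. The genes were chosen by symbol and position from GENCODE 44 on hg19, out of 1480 coding genes of the chromosome and 20162 coding genes in all. A promoter was called open in a library when any base of a deposited peak lay within 1 kb of the start site of the canonical transcript (246 genes) or of the 5′ end of the gene record (3 genes). HET-1A is a non-cancerous esophageal epithelial line, immortalised with a viral T antigen and cultured in BEBM medium with its additives, and KYSE-30 and KYSE-150 are esophageal squamous cell carcinoma (ESCC) lines grown in RPMI/F12 with serum, so that line and medium cannot be told apart. No line was treated, each had 2 replicate libraries, and the libraries are named here by the last number of their labels: HET-1A 1 and 2, KYSE-150 7 and 8, KYSE-30 4 and 6.

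Most chromosome 19 zinc finger genes arose by repeated tandem duplication and lie head to tail in clusters. Their products usually carry an array of C2H2 fingers that binds DNA and, in many of them, a KRAB domain, which recruits the corepressor TRIM28 and heterochromatin to transposable elements and other targets. Their promoters are commonly CpG islands, while their gene bodies carry repressive marks in many cell types.

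The 6 peak lists differed greatly in length, and this limited every comparison below. HET-1A library 2 held 15979 peaks and KYSE-30 library 6 held 11671, whereas the other 4 held between 168 (HET-1A library 1) and 1255 (KYSE-30 library 4). The lowest local background of a list, which follows the depth of its library, ranged from 1.49 tags per 200 bp (KYSE-30 library 6) to 3.34 (HET-1A library 2), so that the second longest list came from the library with the lowest background. Of the markers of squamous epithelium, ITGA6 had a promoter peak in HET-1A library 2, and KRT5, KRT14, TP63 and ITGB4 had none in any library, as had PTPRC, CD3E and COL1A1, the markers of blood and connective tissue cells. The lists therefore do not by themselves show the labelled cell type.

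The promoters themselves are shown first, because the ETS core and the CCAAT box were more frequent in the zinc finger genes than in the other genes of the chromosome. The lines below give the 150 bases before the start site in hg19, read 5′ to 3′ on the strand of the gene, for genes that recur in the results. Capitals mark CCGGAAG, the core bound by ETS factors, and CCAAT, the box bound by NF-Y, or the reverse complement of either. ZNF548 and ZNF417 were open in both KYSE-30 libraries, ZNF773 was open in both long lists, ZNF91 was open in KYSE-30 library 6, ZNF8 was open in 3 libraries and ZNF77 was open in HET-1A library 2.
ZNF548: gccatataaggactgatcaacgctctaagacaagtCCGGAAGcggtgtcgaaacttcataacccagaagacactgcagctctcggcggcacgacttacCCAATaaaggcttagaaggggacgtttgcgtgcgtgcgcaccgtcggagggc
ZNF417: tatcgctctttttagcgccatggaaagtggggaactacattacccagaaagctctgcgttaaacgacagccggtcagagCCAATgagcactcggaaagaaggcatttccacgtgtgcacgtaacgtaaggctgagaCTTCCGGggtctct
ZNF773: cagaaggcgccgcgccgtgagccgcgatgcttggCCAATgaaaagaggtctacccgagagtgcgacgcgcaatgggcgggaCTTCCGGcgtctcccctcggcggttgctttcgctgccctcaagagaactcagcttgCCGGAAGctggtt
ZNF91: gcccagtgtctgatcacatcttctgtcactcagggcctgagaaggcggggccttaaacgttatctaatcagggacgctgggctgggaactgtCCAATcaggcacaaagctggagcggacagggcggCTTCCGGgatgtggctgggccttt
ZNF8: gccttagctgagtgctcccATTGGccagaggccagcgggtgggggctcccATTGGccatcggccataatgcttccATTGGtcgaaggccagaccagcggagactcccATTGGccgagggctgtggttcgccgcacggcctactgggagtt
ZNF77: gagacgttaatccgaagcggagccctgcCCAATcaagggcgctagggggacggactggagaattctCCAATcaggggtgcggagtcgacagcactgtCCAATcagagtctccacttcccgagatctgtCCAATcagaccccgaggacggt
These stretches lie at chr19:57901072-57901221 (plus strand), chr19:58427961-58428110 (minus), chr19:58011156-58011305 (plus), chr19:23578274-23578423 (minus), chr19:58790171-58790320 (plus) and chr19:2944970-2945119 (minus), in the order printed. Between 0 and 26 of the 150 bases fell in an annotated exon. ZNF8 and ZNF77 each held 4 CCAAT boxes, as the reverse complement in ZNF8 and as written in ZNF77, and no ETS core. ZNF773 held 2 ETS cores, 69 and 13 bases before the start site counted to the first base of the match, and the remaining 3 promoters held 1 ETS core and 1 CCAAT box each.

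In HET-1A library 2, 65 of the 249 zinc finger promoters were open (26.1%, Wilson 95% interval 21.0 to 31.9), against 35.0% of the 1231 other coding genes of chromosome 19 and 27.6% of all coding genes. In KYSE-30 library 6, 61 were open (24.5%, 19.6 to 30.2), against 15.4% of the other coding genes of the chromosome and 23.3% of all coding genes. The zinc finger promoters thus had peaks at about the share of all coding genes in both long lists, below the rest of their chromosome in the HET-1A library and above it in the KYSE-30 library. The difference from the other genes of the chromosome was −8.91 percentage points in HET-1A library 2 (Newcombe 95% interval −14.6 to −2.56) and 9.06 points in KYSE-30 library 6 (3.70 to 15.1). Intervals cover counting error over genes only, and each of these values comes from 1 library. The numbered ZNF genes of other chromosomes (n = 266) were open at 34.6% and 34.2% in the same 2 libraries.

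In the 4 short lists few zinc finger promoters were open, at shares whose intervals held those of the other genes. KYSE-150 library 7 had 4 (1.61%; 0.894% of other coding genes of the chromosome and 1.44% of all coding genes), and KYSE-30 library 4 had 5 (2.01%; 2.84% and 3.09%). HET-1A library 1 had 0 of 249, which allows a share of up to 1.20%, beside 0% of the other coding genes of the chromosome and 0.0248% of all coding genes. KYSE-150 library 8 also had 0, beside 0.0812% and 0.134%. The ZNF genes of other chromosomes stood at 6.77% (4.32 to 10.4) in KYSE-30 library 4, above the interval of the chromosome 19 genes (0.861 to 4.61), and had 1, 4 and 2 open genes of 266 in HET-1A library 1 and KYSE-150 libraries 7 and 8. Between the zinc finger genes and the other genes of chromosome 19 a difference was not detectable at these list lengths.

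**Figure D1:**
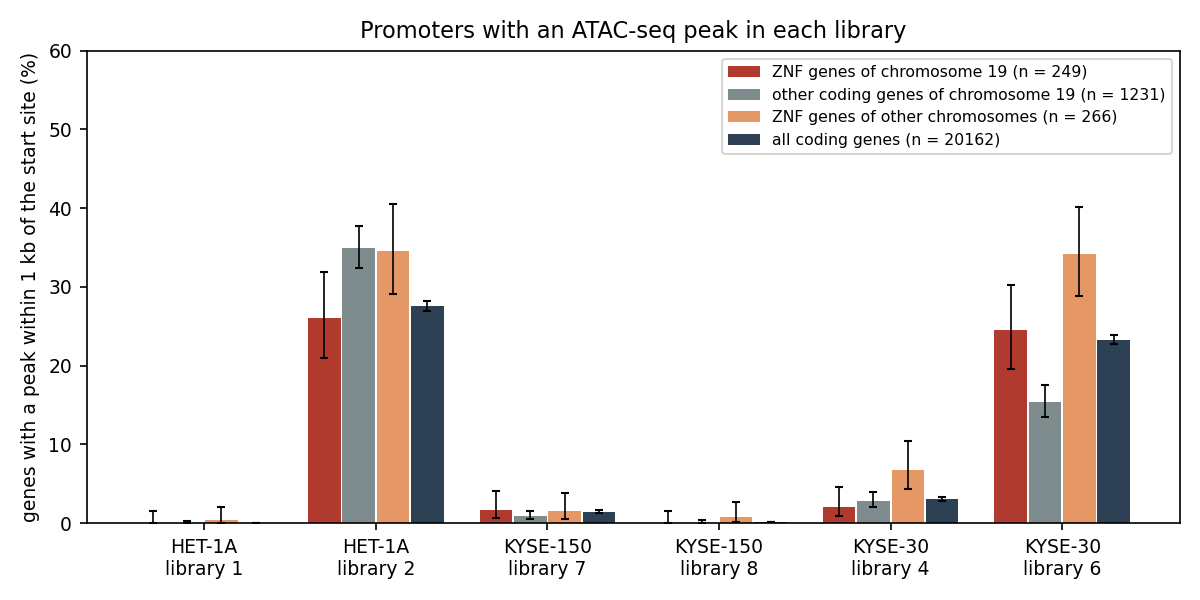
Share of genes with a peak within 1 kb of the start site (y axis, percent) in each of the 6 libraries (x axis) for 4 gene groups, with Wilson 95% intervals as error bars. The zinc finger genes of chromosome 19 stand at 26.1% in HET-1A library 2 and 24.5% in KYSE-30 library 6, while the other genes of the chromosome stand at 35.0% and 15.4%.

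Few promoters could be compared between the libraries of a line, because the shorter list of each line held 0 (HET-1A), 0 (KYSE-150) and 5 (KYSE-30) member promoters. No zinc finger promoter had a peak in both HET-1A libraries or in both KYSE-150 libraries, and 4 (1.61%) had one in both KYSE-30 libraries. Of all coding genes 0.00992% (HET-1A), 0.0248% (KYSE-150) and 2.63% (KYSE-30) had a peak in both libraries of the line. The 4 zinc finger promoters were among the 5 open in KYSE-30 library 4 (80.0%), against 80.0% (28 of 35) for the other genes of the chromosome and 85.4% (531 of 622) for all coding genes. A peak in at least 1 of a line's libraries was found at 65 promoters for HET-1A, 4 for KYSE-150 and 62 for KYSE-30. Counted over all 6 libraries, 147 of the 249 promoters had no peak, 72 had a peak in 1 library, 27 in 2 and 3 in 3, and none in more. Over the 2 long lists, 148 of the 249 had no peak. So did 775 of the 1231 other coding genes of the chromosome and 12816 of all 20162 coding genes. With 2 libraries against 2, an exact permutation test between lines cannot go below p = 0.33, so that no difference between lines was tested.

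The 4 promoters shared by the KYSE-30 libraries were those of ZNF565, ZNF146, ZNF548 and ZNF417. ZNF565 and ZNF146 start on opposite strands within 1 kb of each other and read the same peak. That peak had a fold enrichment (tags at the summit over the local background) of 8.35 in the long HET-1A list, and reached 4.72 (library 4) and 5.62 (library 6) for KYSE-30, and was in no other list. ZNF146 encodes a protein made almost only of zinc fingers, without a KRAB domain. For KYSE-30 libraries 4 and 6, fold enrichments were 5.35 and 5.70 at ZNF548 and 4.94 and 5.00 at ZNF417, and neither had a peak in HET-1A or KYSE-150. Both lie in the last cluster of the long arm and each starts within 1 kb of another gene record, in both cases a locus without a symbol of its own.

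Other members open in the short lists were few. ZNF8, the third promoter with a peak in 3 libraries, had values of 5.53 (HET-1A library 2), 4.79 (KYSE-150 library 7) and 4.97 (KYSE-30 library 6), and so was the only member with a peak in all 3 lines. The other 3 promoters of KYSE-150 library 7 were ZNF653 (fold enrichment 3.59), ZNF576 (4.35) and ZNF428 (4.05), and all 3 were also open in HET-1A library 2 (3.97, 8.19 and 4.50) and in neither KYSE-30 library. ZNF235 was open in KYSE-30 library 4 at 4.57 and in no other library.

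Along the chromosome, 235 of the 249 genes fell into 10 clusters, defined as runs of at least 5 genes with neighbouring start sites at most 500 kb apart, and 14 lay outside them. Clusters 1 to 4 are on the short arm and 5 to 10 on the long arm. The open share changed along these clusters differently in the 2 long lists. In the first 3 clusters 22 of 45 promoters were open in HET-1A library 2 (48.9%, 35.0 to 63.0) and 8 in KYSE-30 library 6 (17.8%, 9.29 to 31.3), and those 8 were open in HET-1A library 2 as well. The 26 other coding genes in these spans had 6 and 2 open, and the other genes of the whole arm are given with the arms. Some open members start within 1 kb of another coding gene, so that a peak can count in both groups of a span. In the last cluster the order of the lists turned, with 12 of 43 open in HET-1A library 2 (27.9%, 16.7 to 42.7) and 22 in KYSE-30 library 6 (51.2%, 36.8 to 65.4). Clusters 5 to 9 had 27 of 110 (24.5%) and 28 of 110 (25.5%). The spans of clusters 1 and 5 held no other coding gene, and those of the other spans are given below by cluster.

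**Figure D2:**
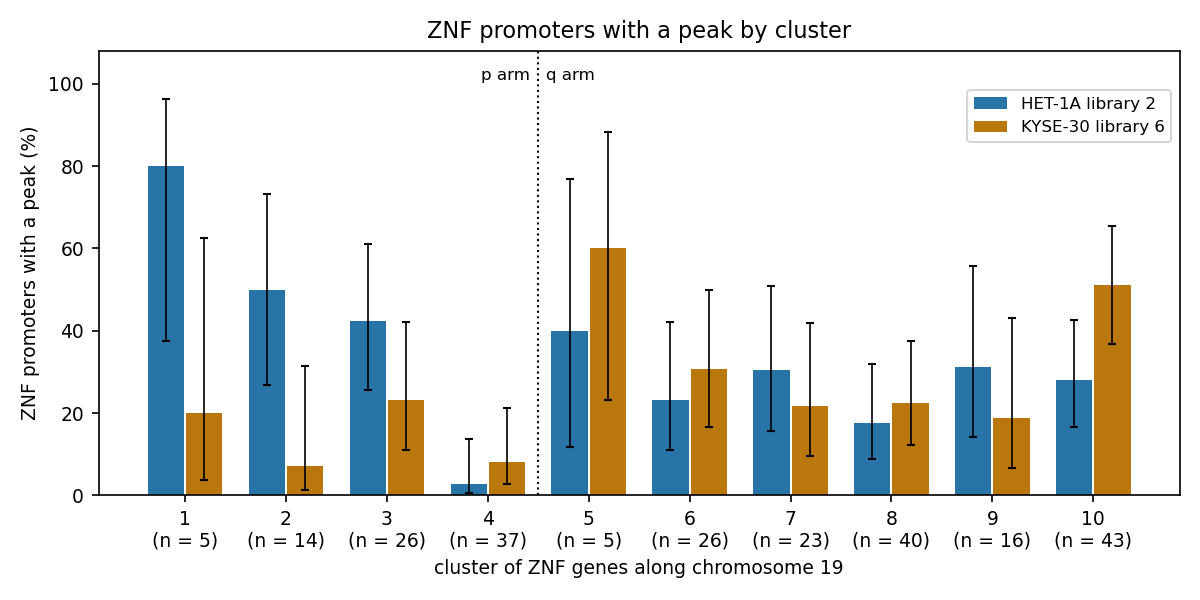
Share of zinc finger promoters with a peak (y axis, percent) in the 10 clusters in order along chromosome 19 (x axis, with the number of genes) in HET-1A library 2 (blue) and KYSE-30 library 6 (orange), with Wilson 95% intervals as error bars and a dotted line between the arms. HET-1A library 2 is higher in clusters 1 to 3, KYSE-30 library 6 reaches 51.2% in cluster 10, and cluster 4 is low in both.

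Cluster 1, from ZNF554 to ZNF77 (chr19:2819866-2944969), had 4 of 5 promoters open in HET-1A library 2, at fold enrichments of 4.99 (ZNF554), 4.29 (ZNF556), 7.52 (ZNF57) and 6.68 (ZNF77). Of these, ZNF57 alone was also open in KYSE-30 library 6, at 4.69. Cluster 2, from ZNF414 to ZNF846 (chr19:8579051-9879414), had 7 of 14 open in HET-1A library 2 and 1 in KYSE-30 library 6. The latter was ZNF558 (4.22 and 4.82), and the highest in HET-1A library 2 was the peak at 6.44 shared by ZNF559 and the readthrough gene ZNF559-ZNF177. The 14 other coding genes in its span had 1 open promoter in each of these lists. ZNF558 starts within 1 kb of MBD3L1, so the peaks at ZNF558 can count for both genes. Cluster 3, from ZNF653 to ZNF791 (chr19:11616654-12721734), had 11 of 26 open in HET-1A library 2 and 6 in KYSE-30 library 6, all 6 in both. These 6 were ZNF627, ZNF823, ZNF136, ZNF564, ZNF490 and ZNF791, the last 2 from a single peak. The 12 other coding genes in the span had 5 (41.7%) and 1 (8.33%) open, beside 42.3% and 23.1% of the members. These groups are not independent, because the open members ZNF700, ZNF443 and ZNF564 start within 1 kb of another coding gene record. ZNF823 went from 5.06 in HET-1A library 2 to 9.02 in KYSE-30 library 6, among the highest of the members there.

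Cluster 4, from ZNF101 to ZNF254 (chr19:19779648-24269989), next to the centromere, was the least open, with 4 of its 37 promoters open in any library. ZNF101, its first gene, was open in HET-1A library 2 (4.14), and ZNF430 (4.82), ZNF91 (6.83) and ZNF726 (6.43) had one in KYSE-30 library 6, so that no promoter of the cluster was open in both. ZNF91, a primate protein that represses SVA retrotransposons, thus had a peak in 1 of 6 libraries. ZNF93, which represses a family of L1 elements and lies in the same cluster, had none. This cluster also had the lowest CpG content of the 10, with a median observed over expected CpG of 0.457, against 0.604 to 0.847 in the others, and the part of this in its low share was not tested. Its 3 other coding genes had no open promoter in either list.

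**Figure D3:**
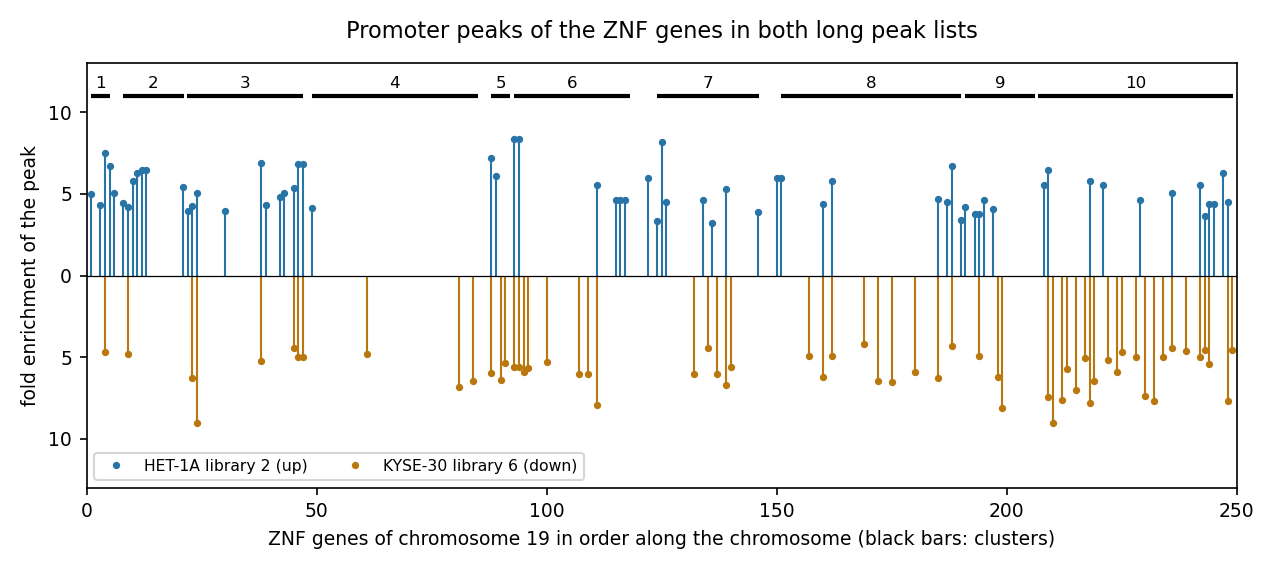
Fold enrichment of the promoter peak (y axis, HET-1A library 2 upwards in blue and KYSE-30 library 6 downwards in orange) for the 249 zinc finger genes of chromosome 19 in their order along the chromosome (x axis), with black bars for the 10 clusters. Genes without a stem had no peak, and KYSE-30 library 6 has its densest stems in cluster 10, whereas both lists are nearly empty in cluster 4.

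On the long arm, cluster 5, from ZNF302 to ZNF792 (chr19:35168583-35455133), had 2 of 5 promoters open in HET-1A library 2 and 3 in KYSE-30 library 6, with ZNF302 in both (7.22 and 5.96). ZNF181 (6.07) was open in HET-1A library 2 alone, and ZNF599 (6.42) and ZNF30 (5.38) in KYSE-30 library 6 alone. Cluster 6, from ZNF565 to ZNF573 (chr19:36705567-38270226), had 6 and 8 of 26 open, beside 1 and 0 of the 6 other coding genes in its span. Beside the shared ZNF565 and ZNF146 peak, ZNF527 was open in both (5.53 and 7.95), while ZNF566, ZNF260, ZNF567, ZNF585A and ZNF383 were open in KYSE-30 library 6 alone at 5.28 to 6.03. ZNF571, ZNF540 and ZNF607 were open in HET-1A library 2 alone, each at 4.60, the first 2 from a single peak. Cluster 7, from ZNF575 to ZNF180 (chr19:44037340-45004574), had 7 and 5 of 23 open, with ZNF226 in both (5.30 and 6.72). The 13 other coding genes in its span had 3 and 0 open. ZNF224, a KRAB repressor that binds WT1, had the weakest promoter peak of the members, at 3.22 in HET-1A library 2, while its neighbours ZNF225 (6.02), ZNF227 (5.63), ZNF230 and ZNF284 (4.42) were open in KYSE-30 library 6 alone.

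Cluster 8, from ZNF175 to ZNF331 (chr19:52074536-54041399), had 7 and 9 of 40 open, with ZNF616, ZNF766, ZNF845 and ZNF761 in both. The 14 other coding genes in its span had 2 and 1 open. ZNF468 (6.52), ZNF611 (6.43), ZNF160 (5.93), ZNF614 (4.92) and ZNF808 (4.22) were open in KYSE-30 library 6 alone. ZNF331, an imprinted gene at the end of this cluster, had a promoter peak of 3.39 in HET-1A library 2 and none elsewhere, while a peak inside its gene body was present in the long HET-1A list (3.72) and for KYSE-30 in libraries 4 (4.75) and 6 (6.43). Cluster 9, from ZNF628 to ZNF835 (chr19:55987984-57183125), had 5 and 3 of 16 open, beside 3 and 3 of the 24 other coding genes in its span. ZNF865 was open in both (3.78 and 4.95), and ZNF444, a SCAN domain protein, reached 8.12 in KYSE-30 library 6 and had no HET-1A peak.

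Cluster 10, from ZNF264 to ZNF446 (chr19:57702868-58987719), at the end of the long arm, held 15 of the 36 promoters that were open in KYSE-30 library 6 and not in HET-1A library 2. These were ZNF543 (9.06, the highest fold enrichment of a member in this library), ZNF587 (7.69), ZNF547 (7.61), ZNF552 (7.38), ZNF749 (6.99), ZNF549 (6.43), ZNF211 (5.90), ZNF548 (5.70), ZNF530 (5.15), ZNF419 (5.04), ZNF776 (5.00), ZNF417 (5.00), ZNF551 (4.67), ZNF329 (4.64) and ZNF446 (4.59). None of them shared its peak with another member. Another 7 were open in both lists, among them ZNF460 (6.45 in HET-1A library 2 and 7.44 in KYSE-30 library 6), ZNF773 (5.76 and 7.81) and ZNF324 (4.53 and 7.71). ZNF805, ZNF416, ZNF586, ZNF584 and ZNF324B were open in HET-1A library 2 alone, at 4.37 to 6.30. The 22 other coding genes in the span had 2 open promoters in HET-1A library 2 and 9 in KYSE-30 library 6. ZNF547, ZNF548, ZNF419, ZNF551 and ZNF417 start within 1 kb of other coding gene records, so a peak there can count in both groups. The other genes of the chromosome also include zinc finger genes with other symbols (ZSCAN, ZFP, ZIM and ZIK). The local background at the peaks of this span, relative to the lowest of the library, had a median of 1.47 in KYSE-30 library 6 (28 peaks) and 1.00 in HET-1A library 2 (15 peaks), and its part in the count was not tested. ZNF274, which binds the 3′ ends of other zinc finger genes and recruits a histone methyltransferase, lies in this cluster and had no promoter peak in any library.

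Outside the clusters 3 of 14 promoters were open, ZNF557 (5.06), ZNF574 (5.99) and ZNF473 (5.96), each in HET-1A library 2 alone. Inside the clusters, ZNF132 (cluster 10), ZNF382 (cluster 6), ZNF471 and ZNF582 (both cluster 9) had no promoter peak in HET-1A, KYSE-150 or KYSE-30. These 4 genes have been described as silenced by promoter methylation in carcinomas. They were among 147 members without a promoter peak.

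Promoters open in KYSE-30 library 6 were shared with HET-1A library 2 less often for zinc finger genes than for the rest of the chromosome. Promoters open in HET-1A library 2 were shared with KYSE-30 library 6 about equally often in both groups. Of the 249 promoters 25 were open in both lists, 40 in HET-1A library 2 alone, 36 in KYSE-30 library 6 alone and 148 in neither. Of the 61 open in KYSE-30 library 6, 59.0% (46.5 to 70.5) had no peak in HET-1A library 2, against 13.2% (9.07 to 18.7, 25 of 190) for the other coding genes of the chromosome, 37.9% for all coding genes and 40.7% (31.1 to 50.9) for the ZNF genes of other chromosomes. The shared promoters were 38.5% of those open in HET-1A library 2 and 41.0% of those open in KYSE-30 library 6, against 38.3% and 86.8% for the other genes of the chromosome. For all coding genes these shares were 52.6% and 62.1%. The HET-1A list was the longer one and its library had the higher background. Cut to as many peaks as KYSE-30 library 6, an alternative added after the values were seen, it gave 60.7% for the zinc finger genes and 15.3% for the others.

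**Figure D4:**
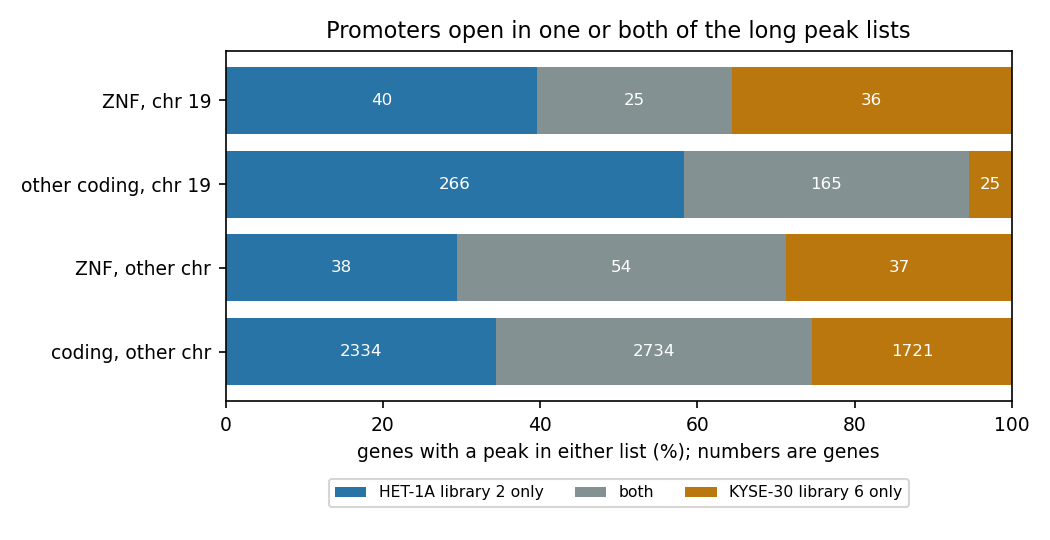
Genes with a promoter peak in HET-1A library 2, KYSE-30 library 6 or both, as a percentage of the genes open in either list (x axis), for 4 groups of coding genes (y axis), with the number of genes printed in each bar. The zinc finger genes of chromosome 19 have 36 genes in KYSE-30 library 6 only, against 25 among the far more numerous other genes of the chromosome.

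Position on the arms went with this pattern. On the short arm 24 of 85 zinc finger promoters were open in HET-1A library 2 (28.2%) and 11 in KYSE-30 library 6 (12.9%), and the other genes of the arm, at 39.1% and 12.2%, were likewise lower in the KYSE-30 library. On the long arm 41 and 50 of 164 were open (30.5% in KYSE-30 library 6), whereas the other genes of the arm had 31.6% and 18.1%. Within the long arm 66.0% (52.2 to 77.6) of the zinc finger promoters open in KYSE-30 library 6 lacked a HET-1A library 2 peak, against 18.9% (12.9 to 26.7) of the other genes. The part of position in the difference was not tested. On the short arm the counts were 3 of 11 and 2 of 68.

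The peaks of the zinc finger promoters were about as strong as those of the other genes. In HET-1A library 2 the member peaks had a median fold enrichment of 5.06 (range 3.22 to 8.35) and 26.0 tags at the summit, against 4.84 and 32.0 tags for the other genes of the chromosome. In KYSE-30 library 6 the medians were 5.70 (4.22 to 9.06) and 16.0 tags, against 5.16 and 17.0. In KYSE-30 library 6 the member promoters open there alone had a median of 5.92 (n = 36) and those open in both 5.43 (n = 25). In HET-1A library 2 the order was the other way, with 4.60 for those open there alone (n = 40) and 5.53 for those open in both (n = 25). The part of peak strength in the overlap of the lists was not tested.

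The summits lay closer to the start site than at other genes. The median summit was 77 bp upstream of the start in HET-1A library 2 and 69 bp upstream in KYSE-30 library 6, with 87.7% and 88.5% of the summits within 250 bp. At the other genes the medians were 131 and 173 bp upstream, with 66.4% and 57.9% within 250 bp. The local background at the member peaks was also lower, with a median, relative to the lowest of the list, of 1.11 (HET-1A library 2) and 1.22 (KYSE-30 library 6), against 1.77 and 1.61 at the other genes of the chromosome, and its part in the called shares was not tested.

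Base composition differed between the gene groups and was followed within bins. The 300 bp promoters (250 bp before to 50 bp after the start) of the members had a median GC content of 59.3% and an observed over expected CpG of 0.767, against 64.0% and 0.734 for the other genes of the chromosome. Members with a peak in any library had medians of 61.0% and 0.830, and those without one 58.3% and 0.717. GC content was 64.3% for members open in both long lists, 61.3% for HET-1A library 2 alone and 58.0% for KYSE-30 library 6 alone. Genes were also set in 4 bins of CpG content and 4 of GC content, with the quartiles of all coding genes as limits. In HET-1A library 2 members were open less often than the other genes of the chromosome in the 3 upper CpG bins (18.0% against 29.8%, 30.4% against 51.9% and 46.5% against 63.0%). The intervals were apart only in the bin from 0.773 to 0.919 (21.3 to 41.2 against 45.9 to 57.9) and overlapped in the bins on either side of it. The lowest CpG bin held 16 members with 1 open. In KYSE-30 library 6 their share was higher in the 2 upper bins (40.5% against 24.0%, and 32.6% against 24.6% with overlapping intervals). It was not higher in the bin from 0.408 to 0.773, which held the most members (13.5% of 111 against 15.8%), or in the lowest bin, where no member was open. Coding genes of other chromosomes stood at 34.4% and 33.5% in the 2 upper bins of this library, inside the member intervals (30.4 to 51.5 and 20.5 to 47.5). In the bin from 0.408 to 0.773 they were above the member interval (8.36 to 21.1). For HET-1A library 2 they stood at 25.2%, 38.2% and 41.3% in the 3 upper bins, each inside the member interval. In the 4 GC bins the HET-1A library 2 share of members was also below that of the other genes, with overlapping intervals in each. The GC bin with the most members had 25.2% (18.5 to 33.3) against 36.1% (31.5 to 41.1). By GC content, the members open in KYSE-30 library 6 without a HET-1A peak were 5 of 6 in the lowest bin, 23 of 34 in the next (67.6%, 50.8 to 80.9, against 16.4%, 9.66 to 26.6, of the other genes), 5 of 16 in the third (31.2%, 14.2 to 55.6, against 11.4%, 6.11 to 20.3) and 3 of 5 in the highest. The intervals of members and other genes were apart in the lower 2 bins and overlapped in the upper 2. For coding genes of other chromosomes the same shares were 54.0%, 35.8%, 36.2% and 39.4%, from the lowest to the highest bin. These were above the shares of the other genes of chromosome 19, and in the third bin also above that of the members. The part of base composition in the difference was not tested.

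Of the 6 short motifs searched first, the ETS core and the CCAAT box were more frequent in the zinc finger promoters than in the other genes, with and without a peak. Both strands of the 300 bp promoters were searched, and a match is only a description of the letters. The ETS core CCGGAAG was present in 44.6% of the 249 promoters, against 15.2% of the other coding genes of the chromosome and 14.0% of all coding genes, and in 43.1% of the 102 members with a peak and 45.6% of the 147 without. The CCAAT box was present in 52.6%, against 37.1% and 35.9%, again with almost the same share in members with (52.9%) and without (52.4%) a peak. The GC box GGGCGG, bound by SP factors, stood at 67.1%, close to the 66.1% and 60.9% of the other groups. The motifs of YY1 (AAGATGGCG, 4.02%), NRF1 (GCGCATGCG, 3.61%) and AP-1 (TGANTCA, 5.22%) were in few members, at shares near those of the other genes of the chromosome (4.63%, 3.90% and 4.55%) and of all coding genes (2.81%, 2.69% and 5.42%). NRF1 was in 6.86% of the members with a peak and 1.36% of those without.

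A seventh motif was added after the sequences had been read. ACTACA, the first letters of the site bound by ZNF143, was in 28.5% of the members, against 7.39% of the other genes of the chromosome and 8.32% of all coding genes. It was in 38.2% of the members with a peak and 21.8% of those without. By list it was in 18 of the 36 members open in KYSE-30 library 6 alone, 13 of the 40 open in HET-1A library 2 alone and 7 of the 25 open in both. Of the motifs searched first, the ETS core and the CCAAT box were likewise more frequent in the members open in KYSE-30 library 6 alone than in those open in HET-1A library 2 alone (20 of 36 against 14 of 40, and 22 of 36 against 18 of 40). The GC box (20 of 36 against 29 of 40) and NRF1 (1 of 36 against 6 of 40) were less frequent there, and YY1 (2 and 2) and AP-1 (1 and 2) were in few of either.

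**Figure D5:**
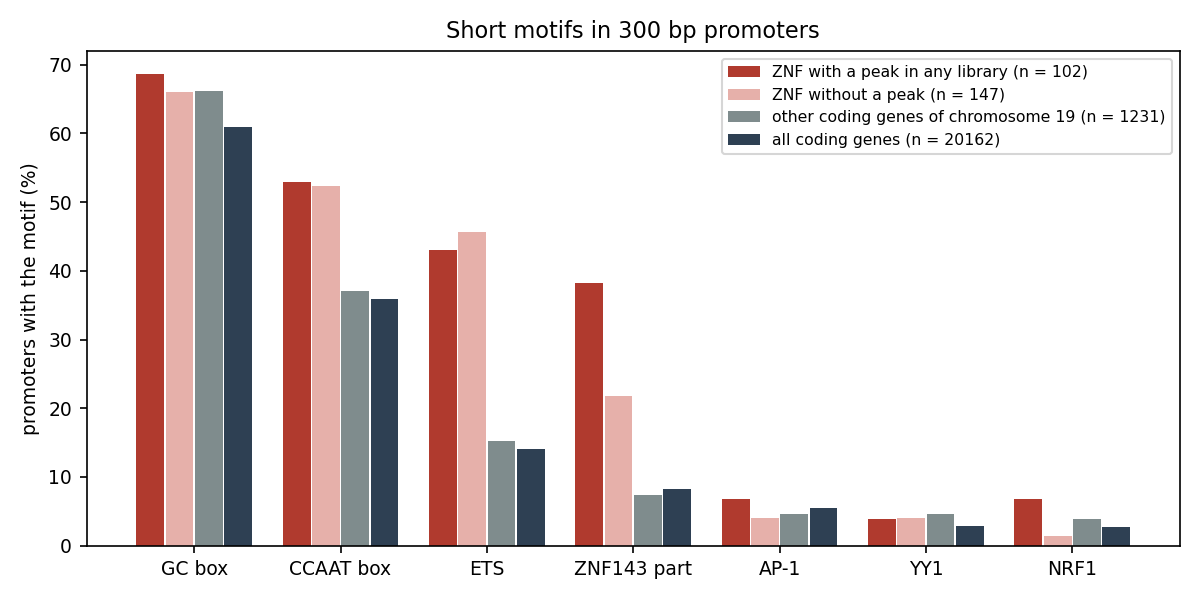
Share of 300 bp promoters holding each of 7 short motifs on either strand (y axis, percent; motifs on the x axis) for zinc finger genes with and without a peak, the other coding genes of chromosome 19 and all coding genes. The ETS core stands at 43.1% and 45.6% in the zinc finger genes and at 15.2% and 14.0% in the other groups, and the partial ZNF143 site was added after the sequences had been read.

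The gene bodies of the members held few peaks, with a single exception. Beyond 1 kb from the start, the 7.55 Mb of member gene bodies held 61 peaks in HET-1A library 2 (8.08 per Mb, against 9.04 per Mb for the other coding genes of the chromosome) and 4 in KYSE-30 library 6 (0.530 against 1.56 per Mb). Of the 61, 54 lay in ZNF536, a large zinc finger gene outside the clusters that represses neuronal differentiation. Without ZNF536, an alternative added after the values were seen, HET-1A library 2 had 7 gene body peaks, or 0.991 per Mb. The 9.04 per Mb of the other genes was not recomputed without the stretch of raised background around ZNF536, described below. ZNF507 had a gene body peak in both long lists (3.91 for HET-1A and 9.14 for KYSE-30).

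ZNF536 had no promoter peak in any library, and the summit nearest to its start was 4645 bp away. Its 54 peaks in HET-1A library 2 had low fold enrichments of 1.39 to 2.60 and a local background 12.4 to 43.3 times the lowest of the library, and its 3 peaks in HET-1A library 1 had 1.99 to 2.39 and 14.4 to 24.6 times. The other 4 libraries had no peak there. In HET-1A library 2 these peaks belonged to a stretch of 177 peaks with at least 4 times the lowest background (chr19:30823927-32578625, 1.75 Mb), which also held the start of TSHZ3. Both HET-1A libraries therefore carried raised background over ZNF536, and its part in these calls was not tested.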

How the data were processed

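ATAC-seq peak lists of 6 libraries, 2 per cell line, were analysed as deposited. By their methods the authors mapped reads to hg19, removed blacklisted regions, corrected read ends for the Tn5 offset and used only fragments shorter than 100 bp. MACS2 then called the peaks of every library separately (q-value 0.05). The submitters' processing notes name Bowtie2 2.3.3.1, Picard 2.2.1 and MACS2 2.1.0.20160309. The deposited lists hold a whole-number score, a fold enrichment (ratio of summit tags plus 1 to local background plus 1), p-values and q-values as −log10, and the summit offset. The score was not used further.

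Start sites came from GENCODE 44 on hg19, and all peak ends lay within its chromosomes. Summit tags and local background were recovered from the fold enrichment and the Poisson p-value (99.6 to 100% of peaks per list, tolerance 0.001 in −log10 p), and background was divided by the lowest of its list. This and the overlap count were tested on simulated data. Read totals are not given in the lists, and their length and background stand for depth. Genes named were the 10 open in most libraries, those open in both libraries of 1 line alone, the strongest of each cluster, 10 fixed by name and, chosen after their values were seen, the members open in 1 long list. Members, lists and measures were chosen with earlier results of these data known. No test was run, and the genes are not replicates. Library numbers differ between lines and pair nothing. Distance, start site, q-value, list length, membership and cluster gap were varied. Protein features were not analysed here. Python 3.11.15, numpy 2.4.6, pandas 2.3.3, scipy 1.17.1 and matplotlib 3.10.9 were used.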

Additional observations from a re-analysis of the deposited data

How the results depend on the processing

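Of 190 recomputed values 176 kept their direction and stayed within the error or 1.5 times of the reported value, 13 moved and 1 reversed. Many of the 176 were 0 both as reported and as recomputed, because the shorter HET-1A and KYSE-150 lists held no member promoter. Such values have no direction to keep, and the count of 176 says nothing about stability for them. Under changes of distance, start site, q-value, membership and, for HET-1A library 2, list length, the difference from the other genes of the chromosome stayed between −14.4 and −6.31 points in HET-1A library 2 and between 6.22 and 10.2 points in KYSE-30 library 6, and the share of KYSE-30 library 6 promoters without a HET-1A peak stayed between 58.9 and 63.3%. With 168 peaks taken from each list, the share was 0.803% in HET-1A library 2 and 0 in KYSE-30 libraries 4 and 6, and the difference was 0.0721 points in HET-1A library 2 (reversed) and 0 in KYSE-30 library 6, since such short lists hold almost no member. Without start sites shared with another coding gene, the share was 0.469% in KYSE-30 library 4 and 0 promoters were open in both KYSE-30 libraries. Counting a peak in either library gave 65, 4 and 62 promoters for HET-1A, KYSE-150 and KYSE-30, and leaving out each library in turn gave 0 to 65, 0 to 4 and 5 to 61. HET-1A library 2 and KYSE-30 library 6 thus decided nearly every value. With cluster gaps of 250 kb the ZNF91 cluster had 0% open in HET-1A library 2. Peaks lost to shallow libraries cannot be told from closed promoters. No paired analysis was possible because the lines share no library numbers.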
